A study of Homo sapiens with 5 samples.

Results

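Rb occupancy was examined at 8 genes associated with the luminal epithelial state of breast cancer cells, the keratin genes KRT7, KRT8, KRT13, KRT18, KRT19 and KRT80 and the trefoil factor genes TFF1 and TFF3. The genes were chosen by name, out of 19970 protein-coding genes of the autosomes and X. For each gene, Rb peaks were collected at its promoter, taken as 2000 bp upstream to 500 bp downstream of any of its annotated transcription start sites (TSSs), and elsewhere in the gene body or wherever its TSS was the nearest coding one within 100 kb. The cells were parental ZR-75-1, an established oestrogen receptor-positive breast cancer line, given either DMSO or the CDK4 and CDK6 inhibitor abemaciclib at 500 nM for 4 days. Rb was profiled in 2 libraries per treatment by CUT&RUN, in which an antibody brings a nuclease to the protein of interest and the DNA it cuts free is sequenced. One further library, made with an IgG2a antibody from DMSO-treated cells, gave the background, and an IgG2a library from abemaciclib-treated cells was not analysed here. All libraries came from the same cell line, RNA was not measured in them, and the luminal label of the genes was therefore taken from background knowledge.

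Keratins are the intermediate filament proteins of epithelial cells. Each filament pairs an acidic type I keratin with a basic type II keratin, and KRT8 with KRT18 is the pair of simple and luminal epithelia, where KRT7 and KRT19 are also made. Trefoil factors are small secreted peptides of mucous surfaces, and TFF1 is among the best known targets of the oestrogen receptor. Rb in its hypophosphorylated form binds E2F factors at cell cycle promoters, and CDK4 and CDK6 phosphorylate it.

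Peaks of the 4 Rb libraries were merged into regions, and a region was called gained when each abemaciclib library had a peak there and no DMSO library did. By this rule, 4 gained regions belonged to 3 of the 8 genes. KRT80 had 1 at its promoter and 1 further upstream, KRT8 had 1 beyond its 3′ end and KRT19 had 1 upstream. No peak of either DMSO library or of IgG2a was assigned to any of the 8 genes. KRT7, KRT13, KRT18, TFF1 and TFF3 had no Rb peak assigned in any of the 4 Rb libraries.

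Sequences at the 3 gained regions outside promoters are printed because these regions are the distal Rb sites of KRT80, KRT8 and KRT19. Each is the plus strand of GRCh38 over 300 bp centred on the summit in abemaciclib replicate 1. The windows were not trimmed to the peaks. That of KRT8 began before its region and did not reach the summit of abemaciclib replicate 2. That of KRT80 ran past the end of its region. Capitals mark matches, on either strand, to the SP/KLF motif GGGCGG, the AP-2 motif GCCNNNGGC and the E2F motif, which was written as TTCCCGC, as TTCGCGC, as TTGCCGC or as TTGGCGC. The KRT80 window lay at chr12:52203424-52203723, the KRT8 window at chr12:52879579-52879878 and the KRT19 window at chr17:41549119-41549418.
KRT80 upstream region: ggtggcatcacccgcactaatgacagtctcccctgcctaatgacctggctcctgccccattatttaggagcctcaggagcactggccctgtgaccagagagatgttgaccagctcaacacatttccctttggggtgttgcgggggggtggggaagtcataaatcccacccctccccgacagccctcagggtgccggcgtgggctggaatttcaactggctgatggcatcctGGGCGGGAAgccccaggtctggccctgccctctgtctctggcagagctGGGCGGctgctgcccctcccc
KRT8 downstream region: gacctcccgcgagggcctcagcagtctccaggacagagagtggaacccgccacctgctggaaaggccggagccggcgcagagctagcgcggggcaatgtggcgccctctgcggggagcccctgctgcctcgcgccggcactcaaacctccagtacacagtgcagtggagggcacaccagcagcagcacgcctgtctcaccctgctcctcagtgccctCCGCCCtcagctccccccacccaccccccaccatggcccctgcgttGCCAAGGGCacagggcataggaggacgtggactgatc
KRT19 upstream region: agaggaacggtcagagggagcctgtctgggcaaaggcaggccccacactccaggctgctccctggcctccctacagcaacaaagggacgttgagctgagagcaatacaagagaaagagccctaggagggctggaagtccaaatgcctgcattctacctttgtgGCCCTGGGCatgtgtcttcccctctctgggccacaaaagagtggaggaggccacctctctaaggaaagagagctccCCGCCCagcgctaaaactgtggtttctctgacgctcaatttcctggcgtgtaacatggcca

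**Figure D1:**
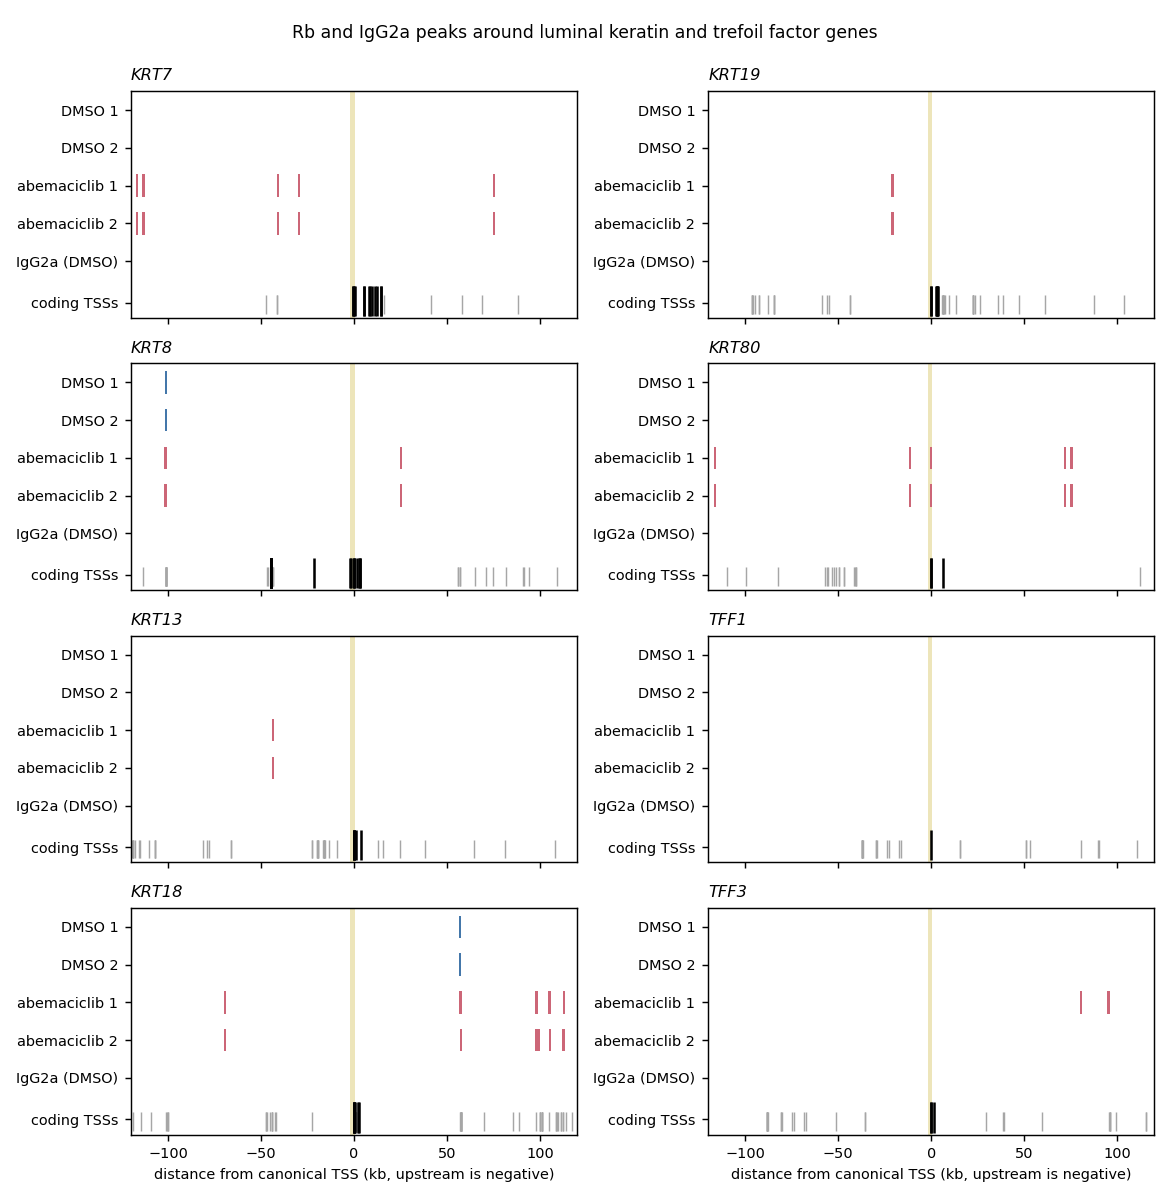
Peaks in the 4 Rb libraries and the IgG2a library within 120 kb of the canonical TSS of each gene, with distance in kb on the horizontal axis and 1 row per library. Blue marks DMSO and red abemaciclib, the yellow band is the promoter window of the canonical TSS, black ticks are TSSs of the gene and grey ticks those of other coding genes, and KRT80 is the gene with red marks at its band.

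KRT80 encodes a type II keratin. Rb peaks at its promoter, merged to 52192029 to 52192304 on chromosome 12, were present in each abemaciclib library and absent from the DMSO lists. The summits were 178 bp upstream of the canonical TSS in replicate 1 and 131 bp upstream in replicate 2, within an intron of the non-coding gene LINC00592, which runs on the opposite strand. The fold given by the authors' peak caller, which sets the summit pileup plus 1 against the local background plus 1, was 6.44 in replicate 1, where the peak had a −log10 p of 9.53 and rank 10277 of 13960. In replicate 2 the fold was 7.03, with a −log10 p of 10.5 and rank 8621 of 12234. Both ranks lay in the weaker part of their lists, and of the 7828 gained promoter regions 86.7% ranked above it in replicate 1 and 73.0% in replicate 2.

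The upstream KRT80 region was the strongest of the 4 by fold and by rank in both abemaciclib libraries. It spanned 52203302 to 52203687 on chromosome 12, with summits 11.6 and 11.5 kb upstream of the canonical TSS, again in an intron of LINC00592 and outside every annotated promoter. Its fold was 12.1 in replicate 1, with a −log10 p of 23.3 and rank 6393, and 7.38 in replicate 2, with a −log10 p of 12.7 and rank 7757. It stood above the promoter peak of the same gene in both libraries. Of the 797 gained regions outside promoters, 22.0% ranked above it in replicate 1 and 37.4% in replicate 2. KRT7 was the next coding gene, 29.0 kb from the middle of the region.

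KRT8, the type II partner of KRT18, had no promoter peak at any of its 18 annotated TSSs. Its gained region was intergenic, at 52879657 to 52880142 on chromosome 12, with summits 25.3 and 25.1 kb downstream of the canonical TSS. The fold was 7.52 in replicate 1, with a −log10 p of 12.6 and rank 8956, and 5.53 in replicate 2, with a −log10 p of 8.33 and rank 9522. These ranks were near the middle of the gained regions outside promoters, of which 51.2% and 62.5% ranked above it. The middle of the region was 22.0 kb from the nearest KRT8 TSS and 30.8 kb from KRT78, a type II keratin gene.

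KRT19, a type I keratin gene, had no promoter peak at its 7 TSSs. Its gained region was intergenic, at 41548834 to 41549563 on chromosome 17, with summits 21.0 and 20.9 kb upstream of the canonical TSS. The fold was 7.25 in replicate 1, with a −log10 p of 11.1 and rank 9502, and 7.23 in replicate 2, with a −log10 p of 10.9 and rank 8357. Of the gained regions outside promoters, 59.1% and 44.8% ranked above it. The assignment to KRT19 was a narrow one, since the region lay 20.9 kb from KRT19 and 22.9 kb from KRT9, and all the assignments rest on distance along the chromosome, without a measure of contact with a promoter.

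The size of each peak was also expressed on a scale that can be set beside the other libraries. The fold and the p of a peak together give the number of fragments stacked at its summit, and dividing this pileup by the genome-wide coverage of the library (0.649 and 0.677 fragments per base in DMSO, 0.656 and 0.521 in abemaciclib) gives an enrichment. At the KRT80 upstream region the pileup was 21 fragments in replicate 1 (exact Poisson 95% interval 13.0 to 32.1) and 15 in replicate 2 (8.4 to 24.7), an enrichment of 30.4 ± 2.3 (mean ± SD, n = 2 libraries). At the KRT80 promoter it was 10 fragments in each (4.8 to 18.4), an enrichment of 17.2 ± 2.78 (n = 2). The promoter of KRT80 was thus below its upstream region in both libraries, while the counting intervals of the pileups, which cover counting error only, overlapped.

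The KRT8 region had a pileup of 14 fragments in replicate 1 (7.65 to 23.5) and 11 in replicate 2 (5.49 to 19.7), an enrichment of 21.2 ± 0.174 (n = 2). The KRT19 region had 11 (5.49 to 19.7) and 10 (4.8 to 18.4), an enrichment of 18.0 ± 1.7 (n = 2). The KRT8, KRT19 and KRT80 promoter regions therefore differed from one another by less than their counting error.

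**Figure D2:**
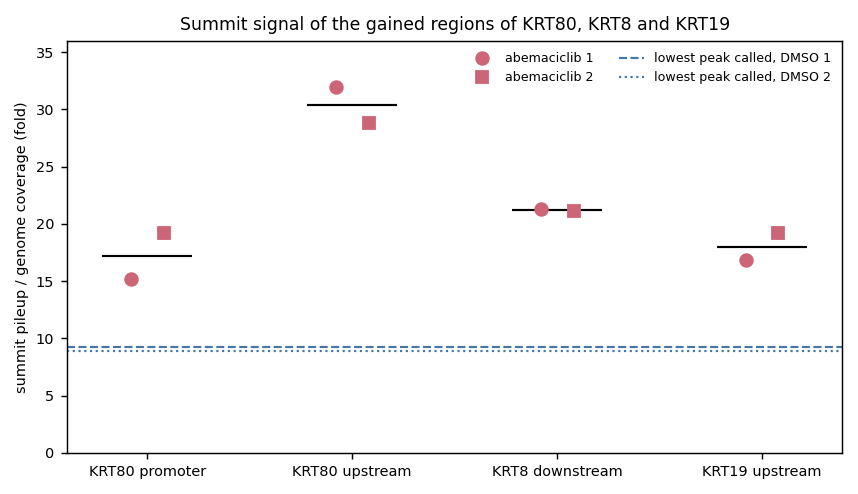
Summit pileup divided by the genome coverage of the library at the 4 gained regions, with a point per abemaciclib library and a black line at their mean. The dashed and dotted lines mark 9.24 and 8.86, the enrichment of the lowest peak called over genome background in DMSO replicates 1 and 2, and every point lies above both.

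The DMSO lists hold no value at these 4 regions, because a peak list leaves out whatever missed the authors' threshold. What those libraries could have shown was worked out from their coverage. At the KRT80 upstream region, the enrichment of abemaciclib replicate 1 would have given 20.8 fragments in DMSO replicate 1 and 21.7 in DMSO replicate 2, where 7 were needed for a peak over the same ratio of local background to coverage. At the KRT80 promoter the same reckoning gave 9.9 and 10.3 fragments against 7 and 6 needed. At the KRT8 region it gave 13.9 and 14.5 against 8 and 7, and at the KRT19 region 10.9 and 11.4 against 6 and 6. Reckoned from abemaciclib replicate 2, the numbers were 18.7 and 19.5 against 9 and 9 upstream of KRT80, 12.5 and 13.0 against 7 and 6 at its promoter, 13.7 and 14.3 against 9 and 9 at KRT8, and 12.5 and 13.0 against 6 and 6 at KRT19. The margin was widest upstream of KRT80 by both replicates, while the narrowest was at the KRT80 promoter by replicate 1 and at KRT8 by replicate 2. At each region a DMSO signal below the number of fragments needed would have gone uncalled. A missing DMSO peak therefore does not mean that Rb was absent there.

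The number of peaks assigned to the 8 genes was 0 and 0 in DMSO and 4 and 4 in abemaciclib. The number of the genes with a promoter peak was 0 and 0 in DMSO and 1 and 1 in abemaciclib. The groups did not overlap in either measure, and the exact two-sided permutation test over libraries gave p = 0.333 for each, the smallest that 2 against 2 libraries allow. Over all coding genes, the share with a promoter peak was 7.97% and 12.6% in the DMSO libraries and 58.0% and 54.0% in the abemaciclib libraries. The lists as a whole moved the same way, from 1438 and 2582 Rb peaks in DMSO to 13960 and 12234 in abemaciclib, and IgG2a gave 589. Of the IgG2a peaks, 85.7% lay outside the autosomes and X. In the Rb lists this share was 4.94% and 5.31% in DMSO and 0.888% and 0.727% in abemaciclib.

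The counts were read against all protein-coding genes. A promoter peak in at least 1 Rb library was found for 59.3% of coding genes and for 1 of the 8, KRT80. Promoter regions that were gained belonged to 40.1% of coding genes and again to KRT80 alone. A gained region outside promoters was found for 3.69% of coding genes and for 3 of the 8, KRT8, KRT19 and KRT80. The combination of no promoter peak and a gained region outside promoters was found for 1.15% of coding genes and for KRT8 and KRT19. No Rb region at all was found for 35.7% of coding genes and for 5 of the 8.

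**Figure D3:**
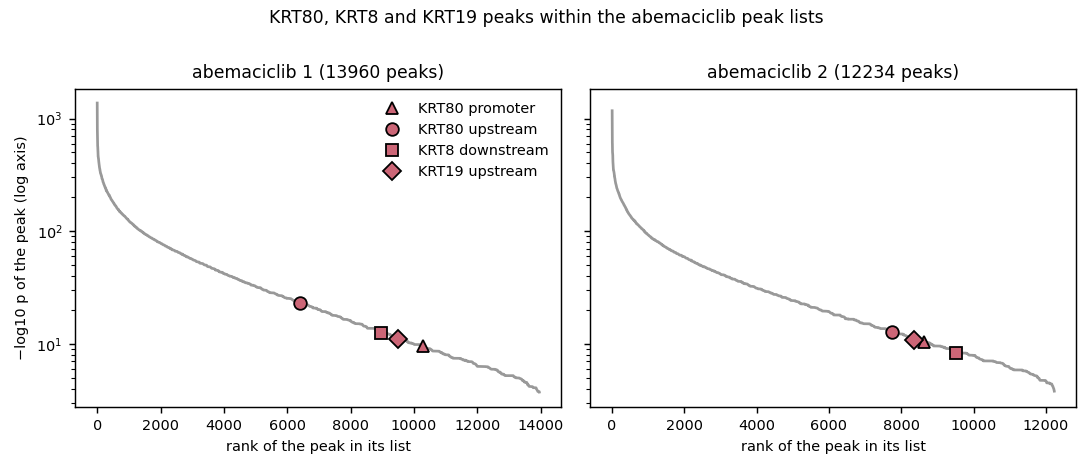
The −log10 p of each peak (log axis) against its rank in abemaciclib replicates 1 and 2, with the peaks assigned to KRT80, KRT8 and KRT19 marked. The marked peaks start at rank 6393, and the upstream region of KRT80 has the highest −log10 p of them in both libraries, 23.3 and 12.7.

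The 5 genes without a region differed in how far the nearest Rb peak of any kind lay. For KRT7, the luminal type II keratin, the nearest summit was 773 and 182 kb from the canonical TSS in the DMSO libraries and 29.7 and 29.8 kb away in the abemaciclib libraries, at the upstream region of KRT80. For KRT13, a type I keratin gene, it was 306 and 1060 kb in DMSO and 43.7 and 43.6 kb in abemaciclib, at the region assigned to KRT19. KRT7 and KRT13 each shared their nearest abemaciclib site with a neighbour in the same keratin cluster.

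KRT18, the type I keratin that sits beside its partner KRT8 among the type II genes of chromosome 12, had its nearest Rb peak at 57.1 and 57.1 kb in DMSO and at 57.2 and 57.2 kb in abemaciclib. In all 4 libraries this was the promoter of EIF4B, a translation initiation factor gene, where the region from 53005778 to 53007278 ranked 260 and 543 in DMSO and 2615 and 1809 in abemaciclib. Rb was thus called at the EIF4B promoter under both treatments, with nothing called nearer to KRT18.

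In the abemaciclib libraries, the trefoil genes lay farther from any Rb peak than the 6 keratin genes did, which was not so in the DMSO libraries. For TFF1 the nearest summit was 608 and 560 kb away in DMSO and 130 and 130 kb in abemaciclib, and no Rb region of any library lay within 100 kb of its single TSS. For TFF3 the distances were 659 and 509 kb in DMSO and 80.6 and 181 kb in abemaciclib. The 80.6 kb of TFF3 rested on abemaciclib replicate 1 alone, in which 2 peaks at rank 12881 lay at ABCG1, a cholesterol transporter gene. Of all coding genes, 85.3% and 83.4% were nearer to an abemaciclib peak than TFF1 was in replicates 1 and 2, against 79.4% and 87.3% for TFF3.

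In the abemaciclib libraries the median distance over the 8 genes was 36.7 kb in each, against 0.513 and 1.16 kb over all coding genes. In the DMSO libraries it was 457 and 346 kb, against 405 and 218 kb. KRT80 was the gene of the 8 that was nearer than the median coding gene in abemaciclib, at 0.178 and 0.131 kb, with 29.6% and 18.6% of coding genes nearer still.

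Around KRT80, 4 gained regions lay within 100 kb of a TSS. Besides its own 2, there were gained regions at 52116380 to 52116781 and 52119601 to 52120428 whose nearest coding gene was SMIM41, 69.2 and 65.7 kb from KRT80. On the other side of KRT7, 60.6 kb from it, a gained region at 52308357 to 52308678 lay at a non-coding promoter inside an intron of KRT86, with ranks 7774 and 7423. The type II keratin cluster, from 52168996 to 52952906 on chromosome 12, held 27 keratin genes and 4 Rb regions, all of them gained, or 5.1 per Mb. The genome as a whole held 4.89 regions per Mb. The type I cluster, from 40697991 to 41624842 on chromosome 17, held 27 keratin genes and 1 Rb region, the one assigned to KRT19, or 1.08 per Mb. The interval of the trefoil genes on chromosome 21, from 42311667 to 42366535, held 0 regions.

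The promoters of the 8 genes were not alike in base composition. CpG observed-to-expected ratios over 1000 bp at the canonical TSS were 0.754 for KRT19, 0.714 for KRT7 and 0.693 for KRT18, and they were 0.372 for TFF1, 0.345 for KRT8, 0.293 for KRT80, 0.265 for KRT13 and 0.256 for TFF3. Among the 13252 coding genes with a ratio of at least 0.6, 80.2% had a promoter peak and 54.5% a gained one, whereas KRT7, KRT18 and KRT19 had none. Among the 4938 genes with a ratio under 0.4, 11.2% had a promoter peak and 7.17% a gained one, and KRT80 had a gained one while KRT8, KRT13, TFF1 and TFF3 had none. The 8 genes thus included 3 CpG-rich promoters without a peak and 1 CpG-poor promoter with a weak one.

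**Figure D4:**
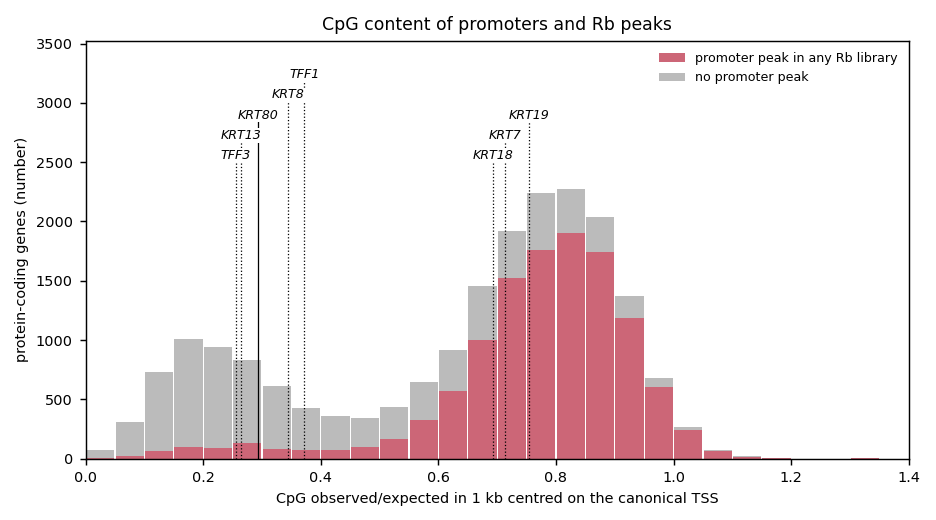
Protein-coding genes by the CpG observed-to-expected ratio of the 1000 bp at their canonical TSS, stacked by whether any Rb library had a promoter peak. Vertical lines mark the 8 genes, solid for KRT80 with a promoter peak and dotted for the other 7, and the dotted lines of KRT7, KRT18 and KRT19 stand among the genes that mostly had one.

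Short motifs were counted from 250 bp upstream to 50 bp downstream of each canonical TSS, on both strands. None of the 8 promoters held an E2F match, against 17.1% of all coding promoters. The SP/KLF motif occurred 6 times in KRT7, 4 times in KRT18, 3 times in KRT80, 2 times in KRT19 and 1 time each in TFF1 and TFF3, and 61.3% of all promoters held at least 1. The GATA motif (AGATAA or TGATAA) occurred 2 times each in KRT13 and TFF1, against a share of 11.3% of promoters. An oestrogen response element, taken as the inverted repeat of GGTCA around 3 free bases with at most 1 mismatch, was in none of the 8 windows and in 0.566% of promoters. These windows were shorter than the promoters used for peaks, and elements more than 250 bp upstream were not counted.

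In the distal windows printed above, the E2F match was in the KRT80 upstream window, at positions 234 to 240 from the window start. It overlapped an SP/KLF match at 232 to 237. Both matches lay within the peak of abemaciclib replicate 1 and beyond the end of the replicate 2 peak, at 52203639. A further SP/KLF match of that window stood at 280 to 285, beyond the end of the region at 52203687 and so under no peak. The KRT8 window held an SP/KLF match at 218 to 223 and an AP-2 match at 264 to 272, and the KRT19 window held them at 240 to 245 and at 164 to 172. All 3 windows therefore had an SP/KLF match, a motif present in 58.9% of the 779 windows of gained regions outside promoters, while AP-2 was in 30.2% and E2F in 28.9%. The oestrogen response element and the GATA motif had no match in the 3 windows or in that of the KRT80 promoter peak. The same held for the forkhead motif TGTTTAC and for the AP-1 motif, sought as TGACTCA and its reverse complement. It also held for the NFY motif CCAAT, which 23.7% of the gained windows outside promoters contained, and for the CHR motif TTTGAA, which 10.8% contained. A match says only that the letters are present, and its absence only that they are not in this window.

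The GC content of the windows was 69.0% for KRT8, 62.7% for KRT80 upstream and 57.0% for KRT19, with a median of 62.7% over the 779. Their CpG observed-to-expected ratios were 0.486, 0.238 and 0.246. The median of all gained windows outside promoters was 0.602 (interquartile range 0.382 to 0.807), and 37.2%, 10.8% and 12.1% of them had a lower ratio than KRT8, KRT80 and KRT19. The KRT80 and KRT19 windows lay below the lower quartile and the KRT8 window within the middle range.

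The other keratins give the setting of these genes. Of 48 further keratin genes, 23 of type II and 25 of type I, 0 had a promoter peak in any Rb library, 0 had a gained region outside promoters and 46 had no Rb region. Over all coding genes these shares were 59.3%, 3.69% and 35.7%. The exceptions were KRT86, with the region at a non-coding promoter in its intron, and KRT17, a basal type I keratin gene, with a peak in abemaciclib replicate 1 alone, 31.4 kb away and at rank 10215. The basal pair KRT5 and KRT14 had no region. Among these and the 6 keratin genes described above, KRT80 was therefore the single one with an Rb promoter peak.

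Of 8 further secretory genes of luminal cells, TFF2 among them, all had no Rb region, against 35.7% of all coding genes. In contrast, among 13 genes of epithelial junctions and the cell surface, 11 had a promoter peak and 10 a gained one, against the 59.3% and 40.1% of all coding genes. The junction and surface genes with the highest ranks in abemaciclib replicate 1 were MUC1, a surface mucin, with ranks 4848 and 4340 in replicates 1 and 2, CLDN3, a tight junction claudin, with 6214 and 5351, EPCAM, an adhesion molecule, with 6270 and 5816, and EVPL, a linker of keratin filaments to desmosomes, with 7566 and 7626. The promoter folds of these 4 genes ran from 7.95 to 15.1, against 6.44 and 7.03 at the KRT80 promoter. Other gained promoters of the list were weaker, and those of JUP, a plaque protein of junctions (5.97 and 5.45 at the stronger of its regions), and CLDN7, a further claudin (6.04 and 5.92), lay below the KRT80 promoter in both libraries. CDH1, the E-cadherin gene, resembled KRT8 and KRT19 in having a gained region outside promoters, 5.13 kb from its TSS, with ranks 9680 and 9802. These lists were compared by count, without a test.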

How the data were processed

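Rb CUT&RUN from ZR-75-1 cells was analysed in 2 DMSO and 2 abemaciclib libraries, with 1 IgG2a library. The authors trimmed reads with BBDuk, aligned them to hg38 with Bowtie2 (2.3.4.1) and called peaks per library, with matched IgG controls, in MACS2 (2.2.7.1) at q 0.05; versions are those of the submitters' processing notes. In the deposited peak lists, the fold enrichment ratio, −log10 p, −log10 q and a score derived from q were given. No read counts were used, so no count model was fitted, and depth is known only as coverage.

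Summit pileup and local background were solved from the fold and p of each peak with a −log10 p up to 40 (relative tolerance 0.0001), and the solution was found for 100% of them. The solver was tested on simulated data. The lowest recurrent background was taken as genome coverage. Duplicate reads were kept by the authors, so stacked fragments need not be separate molecules. Peaks were merged at 1 bp overlap. TSSs came from GENCODE 44 on GRCh38, the build of the files, and window sequences from the hg38 reference. The RefSeq promoter table matched 1 of the 8 genes and was not printed. Differences between treatments were tested by exact permutation over libraries, which measures only the spread between them. Tools were Python 3.11.15, pandas 2.3.3, scipy 1.17.1, pysam 0.24.0 and samtools 1.23.1.

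The 8 genes, the lists and the tests were chosen with earlier results of these data known. All 8 genes were named with every peak. From each list, genes with a gained or shared promoter region or a gained region elsewhere were eligible, up to 4 in order of rank in abemaciclib replicate 1, plus KRT5, KRT14 and TFF2. EIF4B, ABCG1, SMIM41, KRT86, KRT17, KRT9, KRT78, JUP, CLDN7 and CDH1 were named after their values were seen, as neighbours or exceptions. Alternatives were stricter q, other promoter windows and limits of distance, summits in place of midpoints, reciprocal overlap, scaling by coverage, equal peak numbers, removal of peaks shared with IgG2a and removal of each library.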

Additional observations from a re-analysis of the deposited data

How the results depend on the processing

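Of 105 comparisons of 7 counts under 15 other settings, 96 kept the direction of a tested difference or, for a count without a test, a size within 1.5 times. Some of these could not have changed. No region of the 8 genes overlapped an IgG2a peak, so removing such peaks left their counts alone, and a count of 0 cannot fall at a stricter q. With the lists limited to the 1438 strongest peaks of each library, all counts for the 8 genes became 0: promoter peak (exact p = 1), assigned peaks (exact p = 1), gained promoter region and gained region outside promoters. The junction and surface genes with a gained promoter region also went from 10 to 0, since the abemaciclib peaks concerned rank past 1438. With every region within 100 kb of a TSS counted, whichever gene was nearest, 6 of the 8 genes had a gained region outside promoters. KRT7, KRT13 and KRT18 were added, and 14 other keratins also had such a region. These counts stand without a background, since the share over all coding genes was not worked out for this setting. The mean number of peaks assigned to the 8 genes was then higher in abemaciclib than in DMSO by 9.5, in place of 4 (exact permutation p = 0.333). The DMSO libraries were no longer without a peak in this setting, since the EIF4B region, called under both treatments, was counted. With TSSs of protein-coding transcripts only, 1 other keratin had a gained region outside promoters, and leaving out each library in turn gave 0 to 1, the 1 being without abemaciclib replicate 2. The other settings, including q at most 1e-05 and a common −log10 p of 5.1 at equal coverage, kept every count for the 8 genes. They gave 7 to 11 junction and surface genes with a gained promoter region, with 8 at that q, 9 at equal coverage, 7 at 50% reciprocal overlap and 11 without abemaciclib replicate 2. Settings for the lists were chosen after seeing the data. No paired analysis was possible because the counts come from the presence of peaks, without a fitted test, and the labels give only 2 numbered pairs. Pileups of 10 to 21 fragments limit every size given here.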
